A study of Saccharomyces cerevisiae with 4 samples.

Results

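Non-ribosomal-protein genes that carry a small nucleolar RNA (snoRNA) in an intron were examined in small RNA libraries of Saccharomyces cerevisiae, the budding yeast. The rule that chose them names identifiers by what the introns hold and uses no measured value: EFB1 (YAL003W), TEF4 (YKL081W), ASC1 (YMR116C), IMD4 (YML056C) and NOG2 (YNR053C), 5 of the 5798 genes listed. RNA of 10 to 40 nucleotides was sequenced from 4 genotypes, with 1 library each, and each genotype was a strain of its own. The genotypes were xrn1-delta with DCR1 and AGO1 (xrn1 DCR1 AGO1), xrn1-delta without them (xrn1), cells with XRN1 that carried DCR1 and AGO1 (DCR1 AGO1), and wild type (WT). DCR1 encodes Dicer, which cuts double-stranded RNA, and AGO1 encodes Argonaute, which binds the pieces. Together they rebuild RNA interference, which this yeast lacks. XRN1 encodes the main cytoplasmic 5′ to 3′ exoribonuclease. What drove expression of DCR1 and AGO1 was not given in the sources used here.

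Box C/D snoRNAs guide ribose methylation of ribosomal RNA and box H/ACA snoRNAs guide pseudouridine formation. A snoRNA inside an intron is released after splicing: Dbr1 opens the intron lariat, and exonucleases such as Rat1 and the nuclear exosome trim the ends while bound proteins protect the snoRNA. The host genes make products of protein synthesis and of its supply. EFB1 and TEF4 encode the alpha and gamma subunits of the factor that recharges elongation factor 1A with GTP, and ASC1 encodes a protein of the small ribosomal subunit related to mammalian RACK1. IMD4 encodes an IMP dehydrogenase of guanine nucleotide synthesis, and NOG2 a GTPase of large subunit assembly.

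The snoRNAs that define the group are printed 5′ to 3′ from the RefSeq genome of assembly R64, because they are the stretches the host genes have in common by kind. Capitals mark the letters TGATGA of box C and CTGA of box D in the box C/D snoRNAs, and the terminal ACA of the box H/ACA snoRNA.
SNR18: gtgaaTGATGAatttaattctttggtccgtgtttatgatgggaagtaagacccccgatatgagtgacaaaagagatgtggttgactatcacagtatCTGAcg
SNR38: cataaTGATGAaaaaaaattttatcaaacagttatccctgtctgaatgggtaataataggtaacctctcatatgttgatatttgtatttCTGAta
SNR24: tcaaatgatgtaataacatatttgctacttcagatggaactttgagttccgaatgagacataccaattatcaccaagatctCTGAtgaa
SNR54: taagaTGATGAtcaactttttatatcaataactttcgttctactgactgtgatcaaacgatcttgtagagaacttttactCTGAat
SNR191: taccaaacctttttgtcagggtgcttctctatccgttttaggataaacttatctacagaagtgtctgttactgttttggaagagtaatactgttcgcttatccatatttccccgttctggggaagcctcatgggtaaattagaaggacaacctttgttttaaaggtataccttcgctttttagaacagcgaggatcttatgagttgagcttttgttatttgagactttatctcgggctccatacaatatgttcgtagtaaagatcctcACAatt
SNR18 lies in the EFB1 intron at chrI:142367-142468 on the plus strand, and SNR38 in the TEF4 intron at chrXI:283185-283279 on the plus strand. SNR24 lies in the ASC1 intron at chrXIII:499984-500072, SNR54 in the IMD4 intron at chrXIII:163535-163620 and SNR191 in the NOG2 intron at chrXIV:721938-722211, these 3 on the minus strand. SNR191 is the box H/ACA member, with 274 bases, and ends in ACA followed by 3 bases, as did 14 of 29 annotated box H/ACA snoRNAs (48.3%). The others are box C/D snoRNAs of 86 to 102 bases. On the strand of the snoRNA, TGATGA was found in the first 20 bases of SNR18, SNR38 and SNR54, and in 36 of 45 annotated box C/D snoRNAs (80.0%). It was not found in that window of SNR24. CTGA was found in the last 20 bases of all 4 box C/D members and in 43 of the 45 (95.6%).

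Each host gene has 1 annotated intron, of 366 bases in EFB1, 326 in TEF4, 273 in ASC1, 408 in IMD4 and 532 in NOG2. The median over 281 introns of listed nuclear genes was 141 bases. All 5 introns begin with GTATGT, the usual 5′ splice site, as did 73.0% of the 281, and all 5 hold the branch point letters TACTAAC, as did 82.6%, both on the gene's strand. The snoRNA begins 79 bases into the ASC1 intron, 89 into that of TEF4, 91 into that of NOG2, 96 into that of IMD4 and 113 into that of EFB1. The intron made up 20.6% of the gene's span in IMD4 and 37.1% in EFB1, the lowest and highest of the group.

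**Figure D1:**
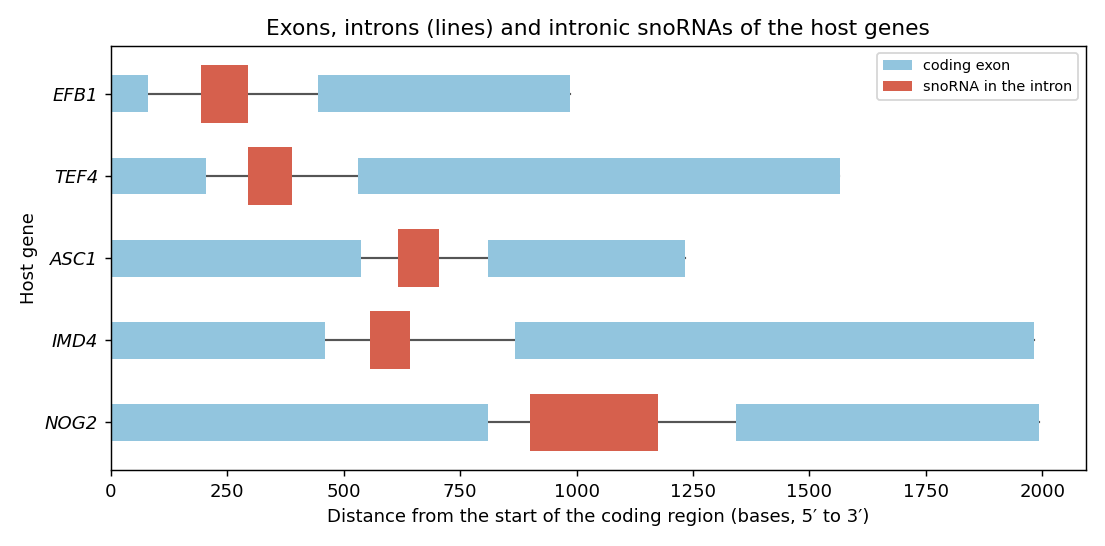
Maps of the 5 host genes, drawn to scale as distance in bases from the start of the coding region, with coding exons as blue boxes, introns as lines and snoRNAs as red boxes. Each snoRNA lies within the single intron of its host, 79 to 113 bases from the intron's start, and SNR191 of NOG2 is the longest at 274 bases.

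Whether a gene's row counts reads over its whole span, intron included, or over exons alone was not given in the sources used here, so reads of the snoRNA may or may not be part of a host's value. Mitochondrial rows bear on this. The intron reading frames listed inside COX1 and COB share the start of those genes, and the value was higher with each longer span in 32 of 32 steps over 10 rows and 4 libraries. The rows are nested and the same steps recur in each library, so these steps are not independent. They do not settle how rows of nuclear genes were counted. Within the host genes, 20-base stretches that occur once in the R64 genome made up 100% of the span of ASC1, 99.6% of EFB1, 99.4% of NOG2, 98.0% of TEF4 and 87.0% of IMD4. IMD4 has the close paralog IMD3, with 83.0% identity over 1569 aligned coding bases and 14.8% of IMD4's coding 20-base stretches in common, so reads of that part of IMD4 cannot be assigned with certainty.

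Reads summed over the rows of listed genes numbered 7686801 in xrn1 DCR1 AGO1, 2825322 in xrn1, 1801407 in DCR1 AGO1 and 627607 in WT. A value is on the deposited scale, where 1 read is worth 0.0762 in xrn1 DCR1 AGO1, 0.330 in xrn1, 0.318 in DCR1 AGO1 and 1 in WT. Ranges beside values are 95% intervals, Poisson for values and Clopper-Pearson for folds and shares, and they cover counting error only. No difference has a replicate check and none of the pairwise comparisons has a p-value. Libraries came from whole cultures, so fewer cells with such small RNA and less of it per cell cannot be told apart. Nor can either be told apart from more small RNA of other genes in a library, since the scaling of the columns was not given. XRN1 itself had 0 reads in xrn1 DCR1 AGO1 and a value of 0.991 in xrn1, against 12.4 in DCR1 AGO1 and 148 in WT. For the count of 0, a 1-sided limit of 3 reads is a value of 0.229, and the Poisson interval used for other values ends at 0.281. The mitochondrial share of summed reads was 0.0394% in xrn1 DCR1 AGO1 and 0.361% in DCR1 AGO1, against 33.1% in xrn1 and 26.7% in WT. Rows nested in COX1 and COB may count the same read more than once. The mitochondrial shares and the summed totals may therefore be too high, and the hosts' shares of all reads too low.

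The 5 host genes together took 0.0204% of reads in xrn1 DCR1 AGO1 (0.0194 to 0.0215%) and 0.0326% in DCR1 AGO1 (0.0300 to 0.0353%), against 0.707% in xrn1 (0.697 to 0.717%) and 0.551% in WT (0.533 to 0.570%). Among nuclear genes alone, their share was 0.0204% in xrn1 DCR1 AGO1 and 0.0327% in DCR1 AGO1, against 1.06% in xrn1 and 0.766% in WT. That share leaves out the nested mitochondrial rows. The host genes thus held a larger part of the small RNA in both libraries without DCR1 and AGO1, with and without the mitochondrial reads.

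EFB1 had 14.4 in xrn1 DCR1 AGO1 (12.4 to 16.6) and 731 in xrn1 (701 to 762), 42.2 in DCR1 AGO1 (35.4 to 50.1) and 912 in WT (854 to 973). TEF4, the other subunit of the same exchange factor, had 24.7 in xrn1 DCR1 AGO1 (22.1 to 27.5), 508 in xrn1 (483 to 534), 59.1 in DCR1 AGO1 (50.9 to 68.2) and 157 in WT (133 to 184). EFB1 was therefore highest in WT and TEF4 highest in xrn1, while both were lowest in xrn1 DCR1 AGO1, and the intervals of the 4 libraries did not overlap in either gene. ASC1 had 44.4 in xrn1 DCR1 AGO1 (40.8 to 48.1), 1909 in xrn1 (1860 to 1959), 50.2 in DCR1 AGO1 (42.7 to 58.6) and 1652 in WT (1573 to 1734). IMD4 had 20.3 in xrn1 DCR1 AGO1 (17.9 to 22.9), 365 in xrn1 (344 to 388), 23.8 in DCR1 AGO1 (18.7 to 29.9) and 533 in WT (489 to 580). In ASC1 and IMD4 the intervals of both libraries with DCR1 and AGO1 overlapped, and those of xrn1 and WT did not, with xrn1 the higher for ASC1 and WT the higher for IMD4. NOG2 had 16.0 in xrn1 DCR1 AGO1 (13.9 to 18.3), 3088 in xrn1 (3025 to 3151), 11.1 in DCR1 AGO1 (7.74 to 15.5) and 204 in WT (177 to 234). Its 9345 reads in xrn1 stood against 210 in xrn1 DCR1 AGO1, 35 in DCR1 AGO1 and 204 in WT, so 1 library held most of what was read over this gene. The intervals of NOG2 in both libraries with DCR1 and AGO1 overlapped.

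**Figure D2:**
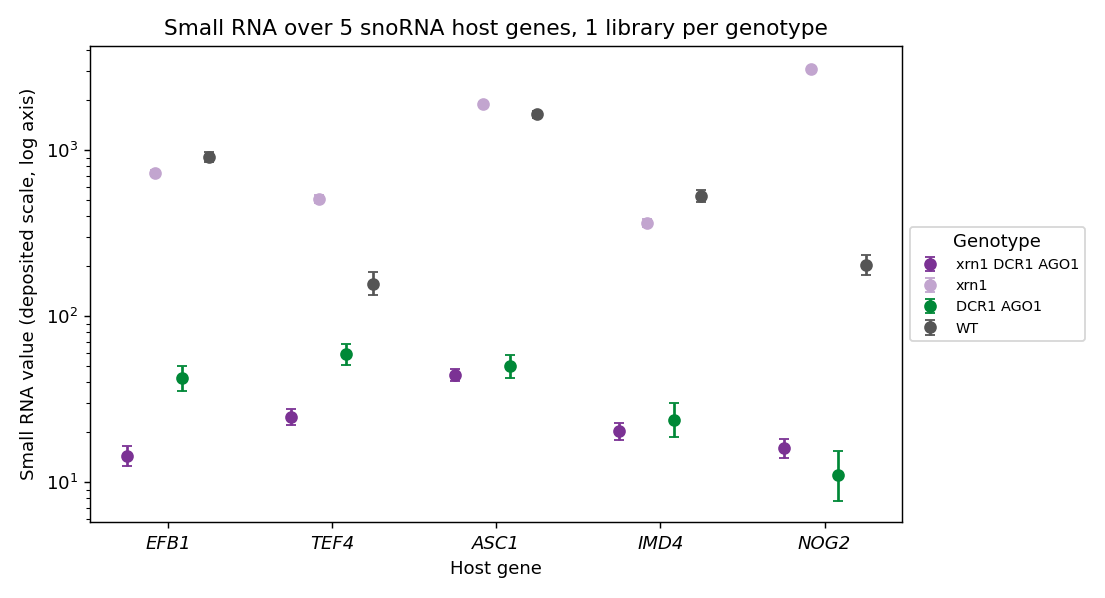
Small RNA values of the 5 host genes on a log axis (deposited scale) in xrn1 DCR1 AGO1, xrn1, DCR1 AGO1 and WT, 1 library each, with 95% Poisson intervals of counting error. Every host gene was lower in both libraries with DCR1 and AGO1 than in both without, from 11.1 for NOG2 in DCR1 AGO1 to 3088 for NOG2 in xrn1.

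Levels were compared between genes as values per kilobase of coding sequence, ranked among 5769 nuclear genes. In WT, ASC1 stood at 1721 per kilobase, the 5th highest, and EFB1 at 1469, the 10th highest, followed by IMD4 at 338, NOG2 at 140 and TEF4 at 127. In xrn1, NOG2 was the highest of the group at 2113 per kilobase (rank 22), with ASC1 at 1989 (rank 25), EFB1 at 1177, TEF4 at 410 and IMD4 at 232. In xrn1 NOG2 thus stood above the other members, and TEF4 above IMD4, whereas in WT NOG2 stood below ASC1, EFB1 and IMD4, and TEF4 below IMD4. NOG2 (121 to 160 per kilobase) and TEF4 (108 to 148) overlapped in WT, and no other neighbours in these 2 orders did. Per kilobase of the whole span with the intron, however, NOG2 (1549) and ASC1 (1548) were level in xrn1. Their order in xrn1 thus depends on the length used. In xrn1 DCR1 AGO1 the order was ASC1 at 46.2 per kilobase, EFB1 at 23.2, TEF4 at 19.9, IMD4 at 12.9 and NOG2 at 11.0. EFB1 and TEF4 overlapped there, as did IMD4 and NOG2. In DCR1 AGO1 it was EFB1 at 68.0 per kilobase, ASC1 at 52.3, TEF4 at 47.7, IMD4 at 15.1 and NOG2 at 7.61, and the first 3 overlapped from neighbour to neighbour.

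As percentiles among nuclear genes, the host genes lay between 41.8 and 72.8 in xrn1 DCR1 AGO1 and between 45.1 and 84.7 in DCR1 AGO1, against 92.8 to 99.6 in xrn1 and 92.1 to 99.9 in WT. The median percentile was 56.3 in xrn1 DCR1 AGO1 and 79.7 in DCR1 AGO1, against 99.1 in xrn1 and 98.4 in WT. If the whole span with the intron is used as the length, the lowest percentiles in the libraries without the pathway were 90.3 in xrn1 (IMD4) and 89.2 in WT (TEF4). A list was made of 56 other intron-bearing genes that are neither ribosomal protein genes nor snoRNA hosts, such as the actin gene ACT1. In R64, 55 of them have an annotated intron. Their median percentile per coding kilobase was 60.1 in xrn1 DCR1 AGO1, 53.6 in DCR1 AGO1, 81.3 in xrn1 and 63.6 in WT. These genes spread from 7.59 to 99.9 in WT, so some lay as high as the host genes.

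**Figure D3:**
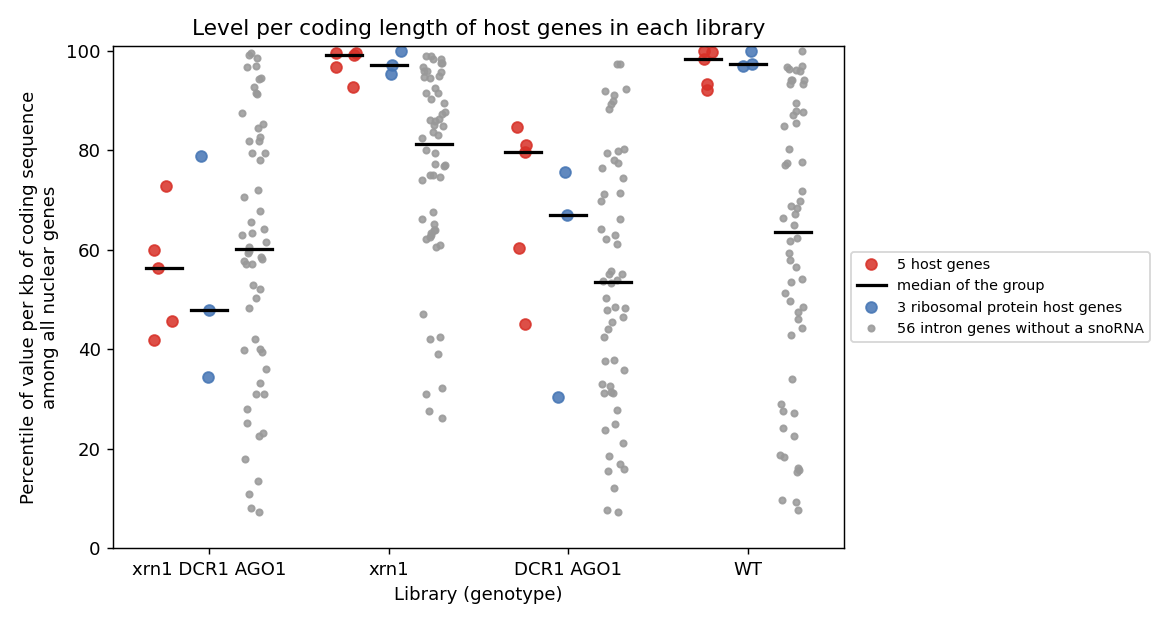
Percentile of the value per kilobase of coding sequence among 5769 nuclear genes, in each library, for the 5 host genes (red), the 3 ribosomal protein genes that host a snoRNA (blue) and 56 genes listed as intron-bearing without a snoRNA (grey), with group medians as black bars. The median of the 5 host genes was 56.3 in xrn1 DCR1 AGO1 and 79.7 in DCR1 AGO1, against 99.1 in xrn1 and 98.4 in WT.

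Cells with XRN1 that gained DCR1 and AGO1 addressed which RNAs give small RNA when the rebuilt pathway is present. All 5 host genes were 2-fold or more lower in DCR1 AGO1 than in WT, beside 60.3% of the 5479 genes counted. None was 2-fold or more higher, beside 15.2%. Differences are of log2(value + 3.18), and a gene was counted where 1 of its libraries reached 3.18. The median of the host genes was -4.31, which is -2.74 relative to the median of all genes counted (-1.57). ASC1 was 32.9-fold lower (27.9 to 39.0), IMD4 22.4-fold (17.5 to 28.9), EFB1 21.6-fold (18.0 to 26.1) and NOG2 18.4-fold (12.8 to 27.1). The log2 differences of these 4 genes lay at percentiles 1.50 to 7.79 of all genes. At this pseudocount a gene with a low WT value cannot reach such differences. The median value in WT was 48 over nuclear genes, against 157 to 1652 for the hosts. The percentiles and the differences relative to all genes thus depend in part on level, here and in the comparison with xrn1. TEF4 was 2.66-fold lower (2.14 to 3.30), a log2 difference of -1.36 at percentile 53.9, so that it was near the median gene, and with size factors in place of the deposited scale its difference was 0.50, in the opposite direction.

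The same addition in cells lacking XRN1 also went with lower values of the host genes. All 5 were 2-fold or more lower in xrn1 DCR1 AGO1 than in xrn1, beside 58.1% of 5445 genes counted (15.3% were higher), with a median log2 difference of -5.33, or -3.87 relative to the median of all genes (-1.46). NOG2 was 193-fold lower (168 to 222), a log2 difference of -7.33 that ranked 19th from the bottom of all genes counted. EFB1 was 50.7-fold lower (43.7 to 59.2), ASC1 43.0-fold (39.5 to 46.9), TEF4 20.6-fold (18.2 to 23.3) and IMD4 18.0-fold (15.7 to 20.7). These folds were larger than in cells with XRN1 for EFB1, ASC1, TEF4 and NOG2, and for IMD4 smaller, with overlapping intervals. For ASC1 that order turned with library sums (log2 differences of -4.67 in xrn1 DCR1 AGO1 over xrn1 and -4.83 in DCR1 AGO1 over WT) and with nuclear sums (-5.22 and -5.27). The lower mitochondrial share in both libraries with DCR1 and AGO1 moved with these differences, and its part in them was not tested. When reads were divided by the nuclear total alone, the medians were -5.22 in xrn1 DCR1 AGO1 over xrn1 and -4.60 in DCR1 AGO1 over WT.

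Set against each other, the log2 differences for DCR1 and AGO1 were more negative in xrn1-delta cells than in cells with XRN1 by 2-fold or more for NOG2 (-3.47), TEF4 (-2.83) and EFB1 (-1.05), beside 24.4% of 5539 genes. None was more positive by 2-fold or more, beside 23.2%. The call for EFB1 ended with library sums (-0.52), with nuclear sums (-0.58) and with a pseudocount of 31.8 (-0.37), which leaves 2 members. ASC1 had -0.37 and IMD4 0.34. The value for NOG2 ranked 32nd from the bottom and that of TEF4 100th. With 1 library per genotype these differences of differences could not be tested.

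Loss of XRN1 in cells without the pathway addressed which small RNAs differ when the exonuclease is missing. NOG2 was 15.1-fold higher in xrn1 than in WT (13.2 to 17.5), a log2 difference of 3.90 and the 4th highest of 5507 genes counted. TEF4 was 3.24-fold higher (2.75 to 3.84). These 2 members were 2-fold or more higher, beside 33.2% of all genes, and none was 2-fold or more lower, beside 9.9%. ASC1 was 1.16-fold higher (1.09 to 1.22), and its direction turned with size factors (-0.25) and with library sums (-0.36). EFB1 was 1.25-fold lower (1.15 to 1.35) and IMD4 1.46-fold lower (1.31 to 1.62), while the median of all genes was 0.51 on the log2 scale. The median of the host genes was 0.21, or -0.30 relative to all genes.

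Between the pair of libraries that carry DCR1 and AGO1, EFB1 and TEF4 were lower where XRN1 was absent. EFB1 was 2.93-fold lower in xrn1 DCR1 AGO1 than in DCR1 AGO1 (2.33 to 3.68) and TEF4 2.39-fold lower (1.99 to 2.87), the 2 members past 2-fold, beside 11.8% of 5084 genes counted as lower. Neither was past 2-fold with a pseudocount of 31.8 (log2 differences of -0.68 and -0.69). None was 2-fold or more higher, beside 33.1%. The intervals of ASC1 (0.94 to 1.35-fold lower) and IMD4 (0.90 to 1.52-fold lower) included 1. NOG2 was 1.44-fold higher (1.003 to 2.12), from 35 reads in DCR1 AGO1, and turned to a log2 difference of -0.22 with size factors. The median of the host genes was -0.20, or -0.75 relative to all genes (0.54). Each library enters a pair of the 4 comparisons, so that comparisons with a library in common are not independent of each other.

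**Figure D4:**
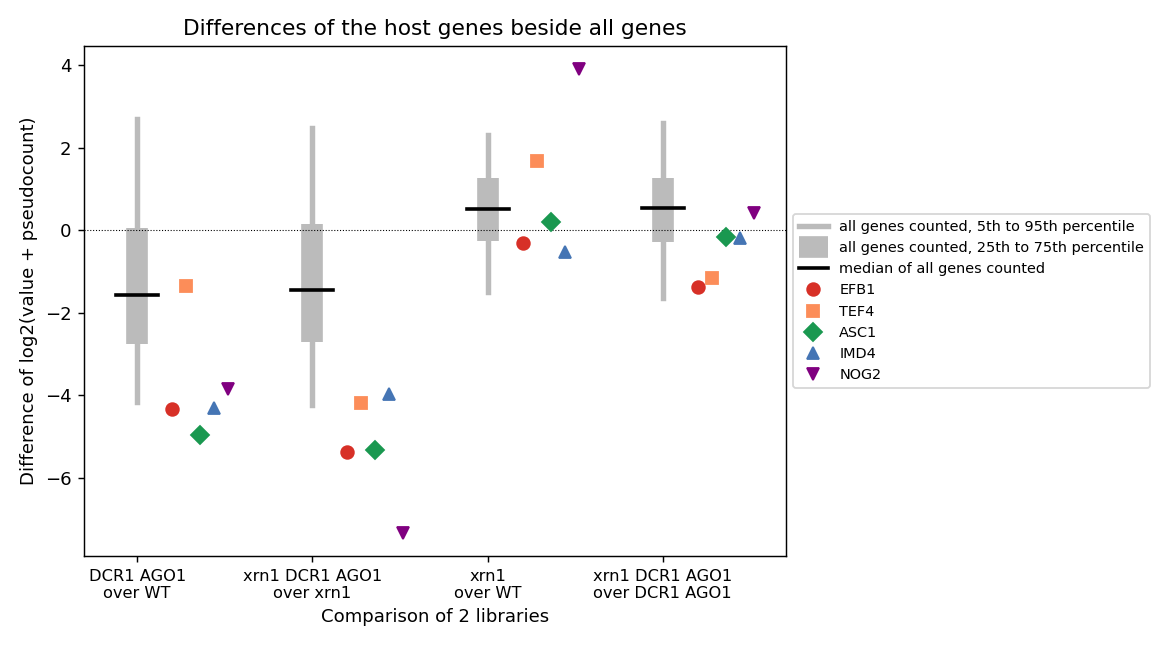
Differences of log2(value + 3.18) of the 5 host genes (coloured symbols) in 4 comparisons of 2 libraries, beside all genes counted (thick grey bar 25th to 75th percentile, thin bar 5th to 95th, black line median). In both comparisons for DCR1 and AGO1 all host genes except TEF4 in DCR1 AGO1 over WT (-1.36, median of all genes -1.57) lay far below the median of all genes, and NOG2 lay at -7.33 in xrn1 DCR1 AGO1 over xrn1 and at 3.90 in xrn1 over WT.

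Because whole reads could be recovered, an additive model was fitted to all genes with edgeR, which takes both backgrounds as replicates of each effect and has 1 residual degree of freedom. The model assumes the same effect in both backgrounds. The log2 differences for DCR1 and AGO1 differed between backgrounds by -3.47 for NOG2 and -2.83 for TEF4, so its p-values rest on an assumption these values depart from. Libraries were scaled by edgeR's own normalization factors, so its fold changes and counts are not on the deposited scale. For DCR1 and AGO1 the model called 1043 genes lower (19.2% of 5429) and 1129 higher (20.8%). Called lower among the host genes were NOG2 (log2 fold change -4.27, edgeR adjusted p = 0.00236) and EFB1 (log2 fold change -3.38, edgeR adjusted p = 0.00367). ASC1 (log2 fold change -3.57, edgeR adjusted p = 0.00467) and IMD4 (log2 fold change -2.66, edgeR adjusted p = 0.0103) were called lower as well. TEF4 was not called (log2 fold change -1.23, edgeR adjusted p = 0.289). Its value was lower in both backgrounds on the deposited scale. With size factors, however, its log2 difference was 0.50 in DCR1 AGO1 over WT and -2.67 in xrn1 DCR1 AGO1 over xrn1. For XRN1 deletion edgeR called 10 genes higher (0.184%) and 13 lower (0.239%). Of the 5 host genes it called 0, also at an unadjusted edgeR p under 0.05, where 473 of all 5429 genes were higher and 255 lower. At that share of all genes, 0 of 5 is no result about the hosts. Among the hosts the smallest adjusted p was that of NOG2 (log2 fold change 1.79, edgeR adjusted p = 0.491).

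The other snoRNA hosts of this yeast are ribosomal protein genes, RPL7A with SNR39, RPL7B with SNR59 and RPS22B with SNR44, which is also a box H/ACA snoRNA. RPS22B, for a small subunit protein, had 27.2 in xrn1 DCR1 AGO1, 3043 in xrn1, 14.0 in DCR1 AGO1 and 1253 in WT. It was the 2nd highest nuclear gene per coding kilobase in both xrn1 and WT. RPL7A, for a large subunit protein, had 5.95 in xrn1 DCR1 AGO1, 348 in xrn1, 2.86 in DCR1 AGO1 and 170 in WT. Its copy RPL7B had 10.3 in xrn1 DCR1 AGO1, 234 in xrn1, 15.9 in DCR1 AGO1 and 184 in WT. All 3 were lower in DCR1 AGO1 than in WT, with a median log2 difference of -4.84, and in xrn1 DCR1 AGO1 than in xrn1, with a median of -5.27, against -4.31 and -5.33 for the other 5 hosts. In xrn1 over WT, RPS22B was 2.43-fold higher (2.29 to 2.58) and RPL7A, the host of a box C/D snoRNA, 2.05-fold higher (1.74 to 2.42). RPL7B had a log2 difference of 0.34 there, below the median of all genes (0.51). NOG2, the other host of a box H/ACA snoRNA, was 15.1-fold higher. RPL7A and RPL7B are near-identical copies, and how reads matching both were counted is not known.

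Genes of the same roles were taken as lists, in which lower and higher count members past 2-fold. Of all genes counted, 60.3% were lower in DCR1 AGO1 than in WT, and 58.1% in xrn1 DCR1 AGO1 than in xrn1. Of 7 other elongation factor genes, 6 were counted and 5 were 2-fold or more lower in DCR1 AGO1 than in WT, with a median log2 difference of -1.52. Among those counted, TEF1, TEF2 and EFT2 had values of only 13, 5 and 18 in WT. The pseudocount limits how negative a difference can be at such values (TEF2 had -1.23), so this median depends in part on level. YEF3, HYP2 and CAM1, with 713, 196 and 98 in WT, had -3.08, -1.77 and -0.65. In xrn1 DCR1 AGO1 over xrn1, 6 of 6 counted were lower, with a median of -2.82. CAM1, the paralog of TEF4, had 13.3 in xrn1 DCR1 AGO1, 104 in xrn1, 61.3 in DCR1 AGO1 and 98 in WT, so like TEF4 it was within 3-fold in DCR1 AGO1 and WT. IMD3, the paralog of IMD4, had 1.75 in xrn1 DCR1 AGO1, 49.9 in xrn1, 1.59 in DCR1 AGO1 and 22 in WT, so like IMD4 it was lower in both libraries with DCR1 and AGO1. IMD2, another paralog, had at most 7 in any library. The GTPases of large subunit assembly other than NOG2, which are NOG1, NUG1 and LSG1, were lower in 3 of 3 in DCR1 AGO1 over WT (median -3.32) and in xrn1 DCR1 AGO1 over xrn1 (median -3.86). In xrn1 over WT their highest log2 difference was 1.39, against 3.90 for NOG2.

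Genes for proteins that bind or release snoRNAs were counted likewise, past 2-fold. The shares of all genes counted were 60.3% lower and 15.2% higher in DCR1 AGO1 over WT. They were 58.1% lower and 15.3% higher in xrn1 DCR1 AGO1 over xrn1, and 9.9% lower and 33.2% higher in xrn1 over WT. Of 4 core protein genes of box C/D particles, 4 were lower in DCR1 AGO1 than in WT (median -2.59) and 4 in xrn1 DCR1 AGO1 than in xrn1 (median -3.06). For 4 core protein genes of box H/ACA particles, the numbers lower were 3 (median -2.20) and 4 (median -2.96), and all 4 were higher in xrn1 than in WT (median 2.05). The genes for release and trimming, DBR1, RNT1, RAT1, RAI1 and RRP6, had 2 of 5 members 2-fold or more lower in DCR1 AGO1 than in WT (median -0.42) and 3 of 5 in xrn1 DCR1 AGO1 than in xrn1 (median -1.25). None of these 5 was 2-fold or more higher or lower in xrn1 than in WT. Among the 56 intron-bearing genes without a snoRNA, 37 were 2-fold or more lower and 7 higher in DCR1 AGO1 than in WT (median -1.96), and 36 were lower and 6 higher in xrn1 DCR1 AGO1 than in xrn1 (median -1.99). The lowest log2 difference of these genes was -4.91 in DCR1 AGO1 over WT, that of QCR9 for a subunit of respiratory complex III, and -5.36 in xrn1 DCR1 AGO1 over xrn1, that of VMA10 for a vacuolar proton pump subunit. In xrn1 over WT 33 of the 56 were 2-fold or more higher and 0 were 2-fold or more lower, with log2 differences from -0.71 to 3.13 (median 1.26). ACT1 had 18.9 in xrn1 DCR1 AGO1, 386 in xrn1, 46.4 in DCR1 AGO1 and 210 in WT.

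Genes next to the hosts on the chromosome in R64 were compared by their differences. In DCR1 AGO1 over WT, where EFB1 had -4.33, its neighbours SSA1 and VPS8 had log2 differences of 0.33 and 0.79. ASC1 had -4.96, and its neighbours MGR3 and SPC24 had -4.67 and 2.91. IMD4 had -4.31, against -1.01 for CMP2 and -1.68 for SPC2, and NOG2 had -3.86, against -2.74 for POP2 and -1.01 for ESF2. TEF4 had -1.36, between -3.18 for RRP14 and -0.69 for VMA5. In xrn1 DCR1 AGO1 over xrn1, where EFB1 had -5.38, SSA1 had -4.00 and VPS8 0.10, and where TEF4 had -4.20, RRP14 had -2.83 and VMA5 -1.53. ASC1 had -5.33 there, against -3.81 for MGR3 and 1.28 for SPC24, and IMD4 had -3.97, against -0.93 for CMP2 and -3.15 for SPC2. NOG2 had -7.33, against -2.51 for POP2 and -3.20 for ESF2. Each host thus had a lower difference than both its neighbours in that comparison. Several neighbours were also 2-fold or more lower, beside 58.1% of all genes counted. The neighbours had values in xrn1 from 42.3 (SPC24) to 197 (VMA5), against 365 to 3088 for the hosts. With a pseudocount of 3.18 most of these neighbours could not have passed the difference of their host, even without reads. The order therefore does not set the hosts apart from their neighbours. In xrn1 over WT, where NOG2 had 3.90, POP2 had 1.05 and ESF2 1.38.

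Profiles over the 4 libraries were compared as Euclidean distances of log2 values, each centred on its own mean, among genes with a value of 31.8 or more in every library where the host had one. That left 1399 candidates for EFB1 and TEF4, 1173 for ASC1 and 3421 for IMD4 and NOG2. Among them, closest to EFB1 were MIS1 (distance 0.51), for a mitochondrial folate enzyme, and HAC1 (0.84), for a transcription factor of the unfolded protein response. Closest to TEF4 were NIP1 (0.35), for a subunit of initiation factor eIF3, and GUA1 (0.40), the GMP synthetase gene. For ASC1 the closest candidates were HAC1 (1.15) and the drug transporter gene PDR5 (1.21), while EFB1 (0.97) and IMD4 (1.13), which did not meet the minimum, were closer. IMD4 was nearest to the ubiquitin ligase gene UBR1 (0.18) and the polarity gene BEM1 (0.23). For NOG2 the nearest were ZEO1 (0.83) and the ribosomal protein gene RPL10 (0.84). Among the hosts themselves EFB1, ASC1 and IMD4 lay 0.97 to 1.13 apart, while NOG2 lay 2.68 to 3.49 from the other hosts and TEF4 2.18 to 3.41.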

How the data were processed

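Small RNA libraries of 4 genotypes, 1 each, were analysed from 1 deposited table of values per gene. Per the submitters' processing notes, the authors used cutadapt and Bowtie; versions, build, annotation, strand handling, multiple mapping and scaling were not given in the sources used here. The WT column holds deposited counts of reads. The other 3 columns hold a deposited signal, which was whole reads times 1 factor per library: 100% of values divided by the column's lowest value above 0 came out whole (tolerance 1e-06), and reads were recovered by division.

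Differences are of log2(value + 3.18), the 10th percentile of non-zero values, and 2-fold was the call. Folds are ratios of values with Clopper-Pearson intervals, since a pseudocount understates low values. Coding lengths, introns, snoRNAs and names came from RefSeq R64 (5789 identifiers matched, 9 did not), and the table itself names no build. Python 3.11.15, scipy 1.17.1 and edgeR 4.0.16 were used, and the counting and the edgeR fit were tested on simulated data. The edgeR simulation had additive changes and less spread than the common dispersion of 0.251 fitted here. The counting simulation had Poisson spread only. Neither shows how the calls hold under the conditions of these data. The members, lists and tests were chosen with earlier results of these data known. Named genes were the members, XRN1, the neighbours, the 2 nearest profiles per member, ribosomal protein hosts, paralogs and, of the intron-bearing genes, ACT1 and the largest difference for DCR1 and AGO1. Other list members are given as counts, except elongation factor genes named for their level in WT. Alternatives were library sums, size factors, pseudocounts of 31.8 and 0.318, no filter and a filter at 31.8. Division by nuclear sums was added after the data were seen.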

Additional observations from a re-analysis of the deposited data

Results flagged for a closer look

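TEF4 was the host gene whose difference for XRN1 deletion had opposite directions with and without DCR1 and AGO1, with both counting intervals on 1 side of equal values. It was lower in xrn1 DCR1 AGO1 than in DCR1 AGO1 (24.7 against 59.1, log2 difference -1.16) and higher in xrn1 than in WT (508 against 157, log2 difference 1.67). With size factors the differences were -1.96 and 1.22. With 1 library per genotype the difference between them was not tested.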

How the results depend on the processing

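In the comparisons for DCR1 and AGO1 all 5 host genes were lower under every alternative except TEF4 in DCR1 AGO1 over WT with size factors (0.50). Size factors shift the log2 differences of all genes by 1.92 in DCR1 AGO1 over WT, 1.62 in xrn1 DCR1 AGO1 over xrn1, -0.46 in xrn1 over WT and -0.76 in xrn1 DCR1 AGO1 over DCR1 AGO1. With them, the host median was -2.49 in DCR1 AGO1 over WT, -3.76 in xrn1 DCR1 AGO1 over xrn1, -0.25 in xrn1 over WT and -0.94 in xrn1 DCR1 AGO1 over DCR1 AGO1, and the difference of differences was -1.43. With library sums, these were -4.67 in xrn1 DCR1 AGO1 over xrn1 and -0.36 in xrn1 over WT, the difference of differences was -0.52, and 1 host was 2-fold lower in xrn1 over WT. With nuclear sums, the medians were -5.22 in xrn1 DCR1 AGO1 over xrn1 and -0.25 in xrn1 over WT, and the difference of differences was -0.58. With a pseudocount of 31.8, the medians were -3.35 in DCR1 AGO1 over WT and -4.05 in xrn1 DCR1 AGO1 over xrn1, the difference of differences was -0.37, and 0 hosts were 2-fold lower in xrn1 DCR1 AGO1 over DCR1 AGO1. With a filter at 31.8, which leaves out IMD4 and NOG2, the median of that comparison was -1.16.

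Over all genes, size factors gave 1833 lower and 1938 higher in DCR1 AGO1 over WT (3303 and 833 on the deposited scale), 1779 and 1849 in xrn1 DCR1 AGO1 over xrn1 (3161 and 835), 954 and 1132 in xrn1 over WT (545 and 1831) and 1337 lower in xrn1 DCR1 AGO1 over DCR1 AGO1 (599). In xrn1 over WT, library sums gave 1075 lower and 996 higher, nuclear sums 951 and 1134, and a pseudocount of 31.8 224 and 937. That pseudocount gave 1898 lower in DCR1 AGO1 over WT, and 344 lower and 592 higher in xrn1 DCR1 AGO1 over DCR1 AGO1, where the filter at 31.8 gave 941 higher. The cause of these changes was not tested. The 35 reads of NOG2 in DCR1 AGO1 limit its folds most.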

Other observations

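Windows from 250 bases before to 50 bases after the start of each gene in R64, read on both strands, were searched for 3 motifs. GATGAG, known as PAC in ribosome assembly genes, was found for IMD4 and NOG2, and in 20.05% of 5766 windows. AAAATTTT, known as RRPE, was found for EFB1, TEF4, ASC1 and NOG2, and in 9.21% of windows. CCCATACA, from the Rap1 site, was found for 0 of the 5 hosts and in 0.884% of windows. A match describes letters only.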
